A study of Mus musculus with 4 samples.

Results

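T cells that also carried natural killer (NK) cell receptors were examined in the brains of mice recovering from stroke. A cell belonged to the set when it had at least 2 unique molecular identifier (UMI) counts of the T cell genes Cd3d, Cd3e and Cd3g together and at least 2 of the receptor genes Klre1, Klra1, Klra7 and Klrb1c together. It also had no UMI of Trdc, which encodes the γδ T cell receptor, and none of Foxp3, the regulatory T cell factor, fewer than 3 UMIs of the B cell genes Cd79a, Cd79b and Ms4a1, and at most 2% of its UMIs from 7 phagocyte genes. The rule found 114 such cells among 10841 barcodes with at least 200 genes and at most 10% mitochondrial UMIs. Every mouse was of the C57/BL6 strain and had undergone tMCAO (transient middle cerebral artery occlusion), where flow through a brain artery is stopped for a time and then restored. Immune cells with a high level of the leukocyte protein CD45 were sorted from the ischemic hemispheres 5 or 14 days later, and 2 droplet libraries per day were sequenced from transcript 3′ ends. There was no sham or uninjured group, and nothing in the labels tells if libraries hold 1 mouse or a pool, so the spread between libraries may be technical. The comparison sets were 659 T cells without a UMI of the 4 receptor genes and 536 NK cells, which had the receptors and no Cd3 UMI.

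NK cells recognise other cells through germline-encoded receptors instead of a rearranged T cell receptor. Mouse Ly49 receptors, encoded by the Klra genes, mostly bind classical MHC class I and many of them inhibit the cell, while NK1.1 (Klrb1c) and NKG2D (Klrk1) are activating. CD94 (Klrd1) pairs with NKG2 chains from the Klrc genes, and Klre1 encodes a related lectin-like receptor. Activating receptors signal through small adaptor proteins such as DAP12 (Tyrobp), the Fc receptor γ chain (Fcer1g) and DAP10 (Hcst). T cells can acquire such receptors after repeated stimulation, and invariant NKT cells, innate-like CD8 T cells and some intraepithelial lymphocytes carry them from development.

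Promoters of 3 of the marker genes are shown because they share 1 short motif. Each runs from 250 bases before to 50 bases after a transcript start in the mouse RefSeq annotation of GRCm38.p6, 5′ to 3′ on the gene's own strand, and the capitals mark the core motif of RUNX factors, TGTGGTT or its reverse complement AACCACA. RUNX factors regulate many T and NK cell genes. The Klre1 promoter lies at chr6:129577963-129578262 on the plus strand, that of Klra1 at chr6:130386825-130387124 on the minus strand, and that of Xcl1 at chr1:164935473-164935772 on the minus strand.
Klre1: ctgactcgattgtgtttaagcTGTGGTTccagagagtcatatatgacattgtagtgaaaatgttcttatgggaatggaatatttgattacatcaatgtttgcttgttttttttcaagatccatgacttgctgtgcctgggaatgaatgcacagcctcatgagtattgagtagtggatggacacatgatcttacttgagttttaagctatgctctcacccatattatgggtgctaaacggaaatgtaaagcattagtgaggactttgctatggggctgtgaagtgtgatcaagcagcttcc
Klra1: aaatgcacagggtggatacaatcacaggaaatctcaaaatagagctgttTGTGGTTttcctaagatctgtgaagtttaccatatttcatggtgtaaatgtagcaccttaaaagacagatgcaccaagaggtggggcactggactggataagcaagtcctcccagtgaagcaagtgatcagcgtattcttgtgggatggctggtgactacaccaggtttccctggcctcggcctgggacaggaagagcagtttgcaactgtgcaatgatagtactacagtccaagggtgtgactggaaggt
Xcl1: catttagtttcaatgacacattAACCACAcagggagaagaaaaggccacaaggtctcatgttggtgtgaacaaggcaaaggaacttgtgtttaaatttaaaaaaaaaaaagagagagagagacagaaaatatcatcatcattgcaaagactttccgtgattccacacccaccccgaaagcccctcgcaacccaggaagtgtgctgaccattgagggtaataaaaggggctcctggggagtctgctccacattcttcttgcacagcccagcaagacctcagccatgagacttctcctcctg

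The motif was searched on both strands in the promoters of 19 genes, namely the 4 receptor genes of the rule and the 15 genes with the largest increase over T cells without the receptors. RefSeq held a promoter for 17 of them, and 6 of the 17 had the motif at some start: Cd160, Gzmc, Klra1, Klre1, Ncr1 and Xcl1. Among all 32851 promoters of that length, 5.27% held it. That share and those below for all promoters are per promoter, while a gene with more than 1 start counted if any start matched, so the units differ. The other listed start of Klre1 did not hold the motif. The T-box motif AGGTGTGA and the ETS motif ACCGGAAGT, searched the same way, were in none of the 17, against 1.28% and 1.10% of all promoters. The TCF/LEF motif CTTTGAA was in 3 of the 17, against 5.14% of all. These are letter matches, not measured binding sites.

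The 4 libraries held between 9288054 and 13610119 UMIs, and their cells had medians of 2882 to 4230 UMIs. The shallowest deposited barcode had 500 and 505 UMIs on day 5 and 1180 and 1317 UMIs on day 14, and the file headers of the 2 days name different software information, so the cell calling of the 2 days cannot be told apart from the day. On day 14 the members were deeper than both comparison sets. Their median was 3014 UMIs in replicate 1 and 3466 in replicate 2, against 2208 and 2447 in T cells without the receptors and 2110.5 and 3004.5 in NK cells. A rule that asks for UMIs of 2 gene groups favours deeper cells, so shares of cells with a UMI are given below after each cell was thinned to 1000 UMIs. No doublet caller was run. A member was deeper than the T cell and NK cell medians added together in 14 of 68 cells of replicate 1 and 9 of 40 of replicate 2. The same held for 32 of 371 and 26 of 215 T cells without the receptors and for 12 of 182 and 28 of 170 NK cells. The part of doublets in the set was not tested. Pairs of libraries shared 5 to 16 barcode sequences, never one that was a member in both.

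**Figure D1:**
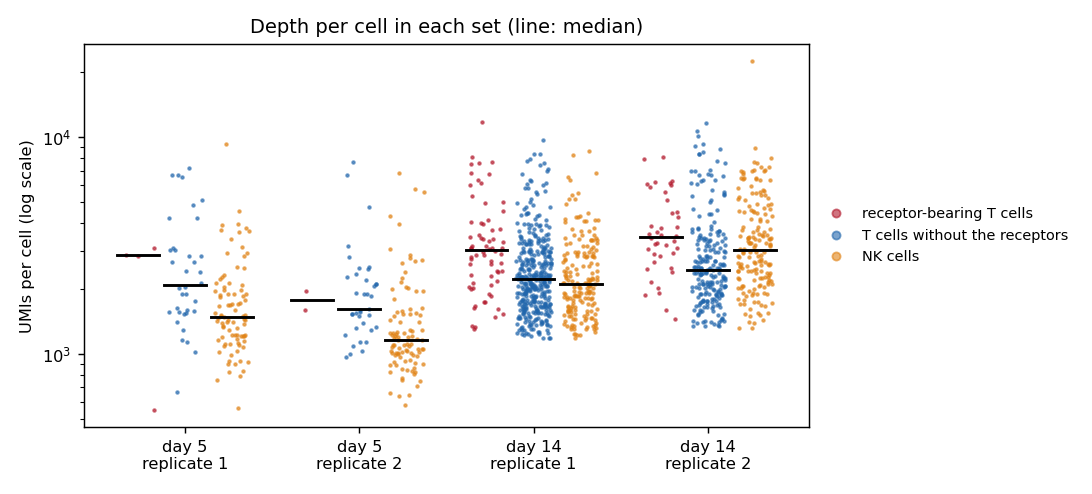
UMIs per cell (log scale) in the 4 libraries, 1 point per cell, for receptor-bearing T cells, T cells without the receptors and NK cells, with a line at each median. On day 14 the medians of the receptor-bearing T cells, 3014 and 3466 UMIs, lie above those of the other sets.

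The thresholds were crossed narrowly by part of the set. Of the 114 members, 24 had exactly 2 receptor UMIs and 14 had 3, while 46 otherwise similar T cells just outside had 1. On the T cell side, 18 members had exactly 2 Cd3 UMIs and 6 had 3, and 37 receptor-bearing cells just outside had 1. In all, 187 cells had 2 or more UMIs of both gene groups. The Trdc condition alone left out 37 of them and the phagocyte condition alone 22, while Foxp3 and the B cell genes each left out 1.

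Almost all members came from day 14. The day 5 libraries held 4 and 2 members and the day 14 libraries 68 and 40. As a share of all cells this was 0.160% (exact binomial 95% interval 0.0435 to 0.408) and 0.0580% (0.00703 to 0.209) on day 5. The shares on day 14 were 2.64% (2.05 to 3.33) and 1.73% (1.24 to 2.35). Both day 14 libraries were above both day 5 libraries. The mean was 0.109% ± 0.0718 (SD, n = 2) on day 5 and 2.18% ± 0.638 (SD, n = 2) on day 14, a difference of 2.08 percentage points with an exact two-sided permutation p of 0.3333, the smallest that 2 libraries against 2 allow. The intervals cover counting error only.

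T cells as a whole were also more frequent in the day 14 libraries. T cells without the receptors made up 1.44% and 1.07% of all cells on day 5 and 14.4% and 9.32% on day 14, while NK cells were 3.51% and 2.79% on day 5 and 7.05% and 7.37% on day 14. Among gated T cells, that is members, T cells with 1 receptor UMI and T cells with none, the members were 4 of 43 (9.30%, 2.59 to 22.1) and 2 of 42 (4.76%, 0.582 to 16.2) on day 5. On day 14 they were 68 of 462 (14.7%, 11.6 to 18.3) and 40 of 272 (14.7%, 10.7 to 19.5), and the counting intervals of the 2 days overlapped. Among cells with 2 or more receptor UMIs, members were 4.17% and 1.98% on day 5 and 25.3% and 18.1% on day 14. With 6 members on day 5, expression could not be compared between days, so the comparisons below rest on the 108 members of day 14.

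**Figure D2:**
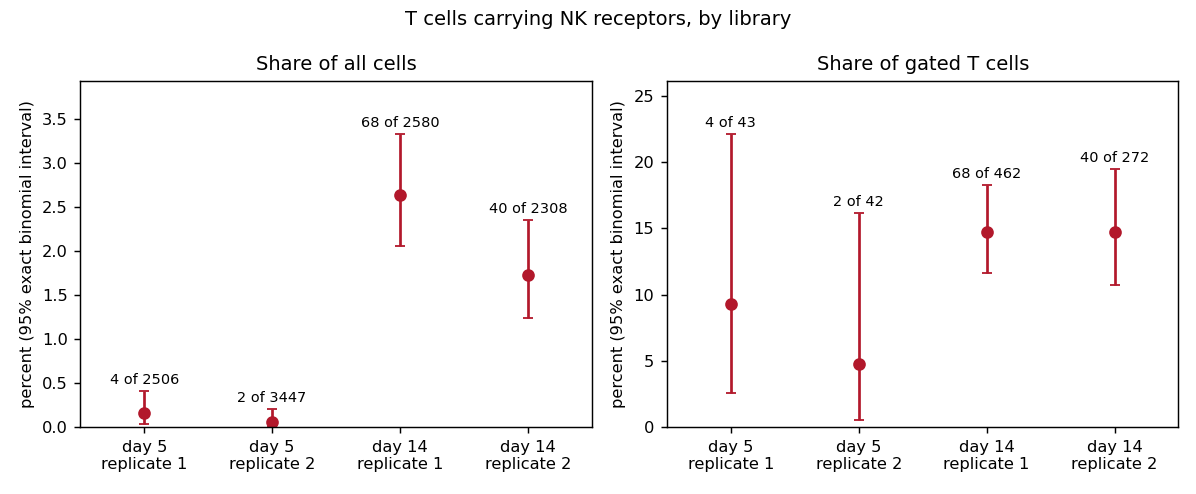
Receptor-bearing T cells as a percentage of all cells (left) and of gated T cells (right) in each library, with exact binomial 95% intervals. The share of all cells is 0.160% and 0.0580% on day 5 and 2.64% and 1.73% on day 14, whereas the intervals of the shares of gated T cells overlap between days.

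The receptors that defined the set came in combinations. These counts describe the rule's own genes and are no test. Klre1 was seen in 77 of the 114 members, Klra7 in 72, Klrb1c in 59 and Klra1 in 55. Only 1 of the 4 genes was seen in 21 members, 2 genes were seen together in 50, 3 in 30 and all 4 in 13. All 5 genes Cd3e, Klre1, Klra1, Klra7 and Xcl1 were detected together in 15 members. Against NK cells of day 14, which were also selected on these genes, the members had less Klrb1c (223 and 278 CPM, the gene's UMIs scaled to 1e6 in all, against 617 and 580) and less Klre1 (336 and 453 CPM against 904 and 886). They had more Klra1, at 290 and 375 CPM against 104 and 89.4 CPM. The Ly49 genes resemble each other at their 3′ ends: 40.4% of 31-base windows in the last 300 bases of the Klra7 transcripts also occurred in another gene, mostly the pseudogene Klra13-ps, and 17.2% of those of Klra1, mostly Klra4. Reads may therefore be shared between Klra genes, and single Klra values are uncertain.

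T cell genes that the rule did not use were also present in the members. Trac, the constant region of the T cell receptor α chain, was seen in 78 members, Trbc2, the β chain constant region, in 103, and at least 1 α or β constant gene in 109 (95.6%). After thinning to 1000 UMIs, Trac was detected in 44.1% and 32.5% of members in the 2 day 14 libraries, in 52.0% and 53.0% of T cells without the receptors, and in 3.3% and 2.4% of NK cells. B cells, taken as background, gave 1.8% and 0%. Trbc1 or Trbc2 was detected in 85.3% and 82.5% of members, against 83.3% and 84.2% of T cells without the receptors and 53.8% and 54.7% of NK cells, so β chain transcripts alone did not separate T from NK cells here.

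Trac in members was far above the NK cell level and somewhat below that of other T cells. In UMI sums per library, Trac stood at 487 and 453 CPM in members, 866 and 854 CPM in T cells without the receptors and 24.3 and 14.6 CPM in NK cells. Against NK cells the log2 fold change was 4.72 ± 0.25 (SE; edgeR quasi-likelihood test with Benjamini-Hochberg adjustment over all genes fitted, adjusted p = 3.0e-11). Against the other T cells it was −0.80 ± 0.17 (adjusted p = 0.0065 in edgeR), a call that was lost without either day 14 library (largest adjusted p = 0.147). Variable segments were too sparsely read to describe the receptor repertoire: 7 of 128 Trav segments and 1 of 35 Trbv segments were seen, each in 1 member. Of the genes of the γ chain constant regions, at least 1 was seen in 17 members, 14 of which also had Trac.

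Most members showed neither coreceptor. Cd4 and Cd8 bind MHC class II and class I beside the T cell receptor. Of the 114 members, 86 (75.4%) had no UMI of Cd4, Cd8a or Cd8b1, 26 had Cd8a or Cd8b1 and no Cd4, and 2 had Cd4 alone. As a mean of the 2 day 14 libraries, a UMI of these genes was seen in 24.2% of members and 55.6% of other T cells. After thinning to 1000 UMIs the shares were 12.9% and 39.8%, so most other T cells showed no coreceptor either at that depth. At 1000 UMIs per cell, Cd8a or Cd8b1 was detected in 11.8% and 12.5% of members, in 29.9% and 34.4% of T cells without the receptors and in 1.1% and 0.6% of NK cells. The difference from other T cells was −20.04 percentage points, with the same sign in both libraries (exact sign-flip p = 0.5, the smallest that 2 libraries allow). Cd4 was detected in 1.5% and 0% of members and 10.2% and 5.1% of other T cells. Because 3′ libraries miss many transcripts per cell, a cell with no coreceptor UMI is not shown to lack the protein.

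**Figure D3:**
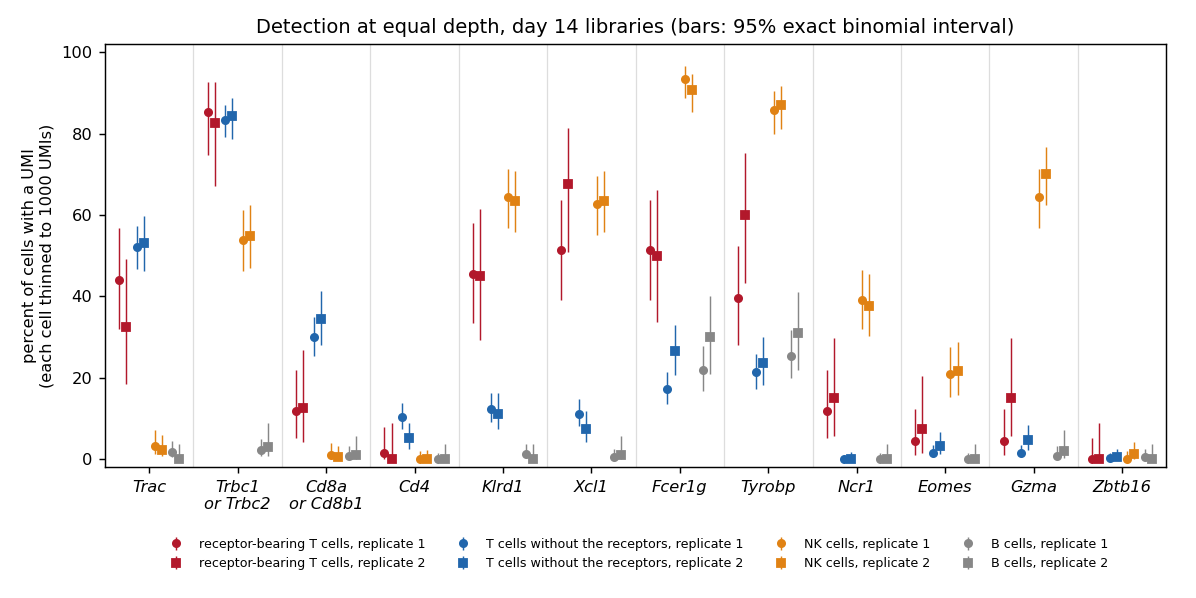
Percentage of cells with a UMI of 12 genes or gene pairs in the 2 day 14 libraries after thinning every cell to 1000 UMIs, with exact binomial 95% intervals, for receptor-bearing T cells, T cells without the receptors, NK cells and B cells. Trac at 44.1% and 32.5% in receptor-bearing T cells is far above NK cells, Cd8 is lower than in other T cells, and Xcl1 is at 51.5% and 67.5% against 62.6% and 63.5% of NK cells.

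Expression was compared on UMI sums of each set in each library, in 1 model with library as a block. The members contributed 2 sums, both from day 14, and the other sets 4 each. Of 3492 genes tested, 164 differed between members and T cells without the receptors at an adjusted p under 0.05 (4.7% of genes tested), with 78 higher in members (2.23%) and 86 lower (2.46%). Against NK cells 105 genes differed (3.01%), 59 higher (1.69%) and 46 lower (1.32%). The genes of the rule are not among these, though those that passed the filter were in the fit and in the adjustment. Both comparisons use the same member sums, so their results are not independent of each other.

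**Figure D4:**
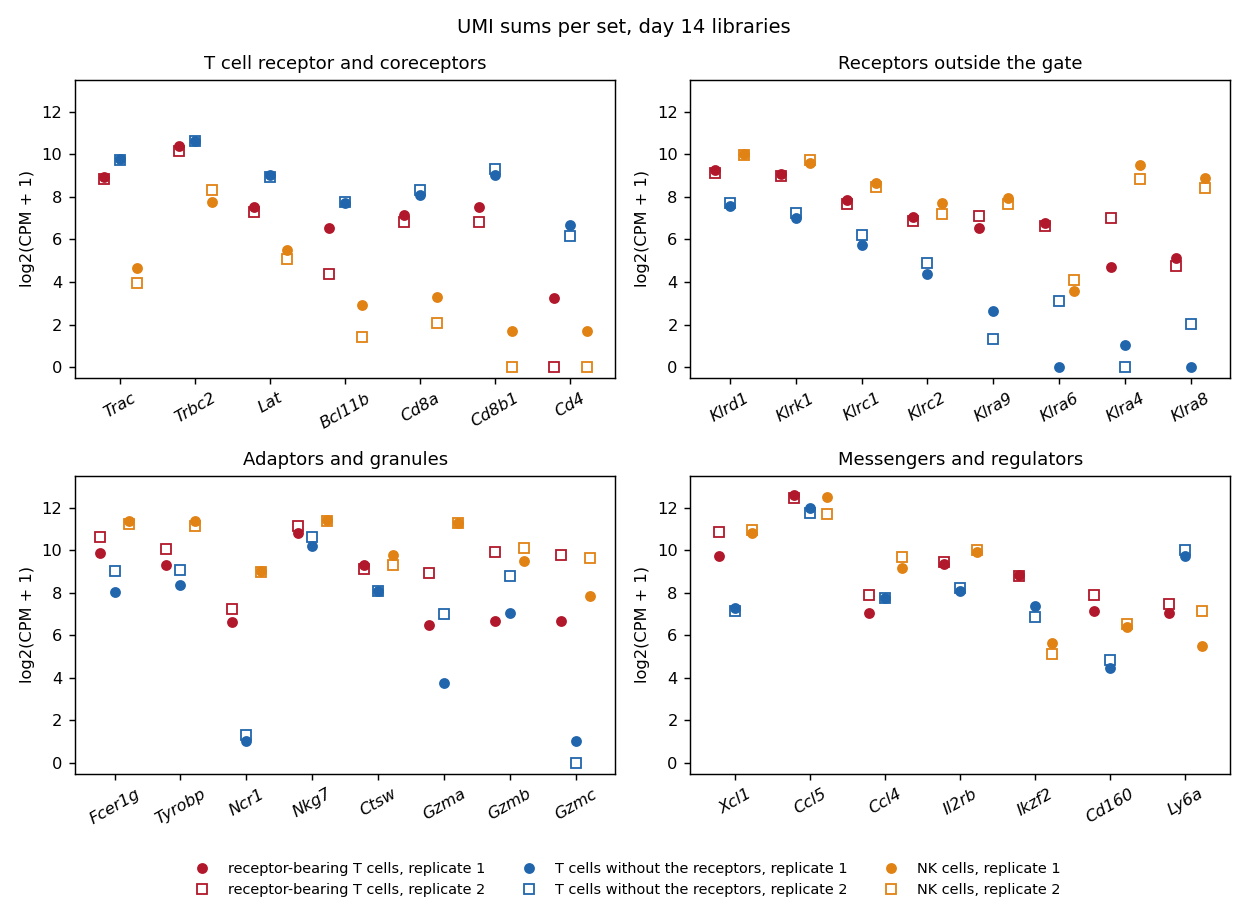
Expression as log2(CPM + 1) in UMI sums of the 2 day 14 libraries for 30 genes in receptor-bearing T cells, T cells without the receptors and NK cells. Trac and Trbc2 lie nearer to the other T cells than to the NK cells, Ikzf2 above both sets, and Klrd1, Klrk1 and Il2rb between both other sets. On this log scale Xcl1, at 845 and 1824 CPM, lies nearer to the NK cells in both replicates. Gzma and Klra8 lie well below the NK cells.

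NK receptors that the rule did not use were also higher in members than in other T cells. Of 18 listed killer cell lectin-like receptor genes outside the rule, 14 were tested, 12 rose and none fell, with a median log2 fold change of 3.37 against 0.00 over all genes tested, of which 2.23% rose. A gene could pass the filter on low counts through members or NK cells alone, so these rises were partly set by that filter. Klra4 and Klrb1a, for example, had 1 UMI each in other T cells of day 14. Klrd1, which encodes CD94, stood at 605 and 556 CPM in members and 187 and 210 CPM in other T cells (log2 fold change 1.59 ± 0.17, edgeR adjusted p = 2.9e-06). Klrk1, encoding NKG2D, stood at 534 and 511 CPM against 126 and 148 CPM (2.14 ± 0.24). The NKG2 chain genes Klrc1, at 231 and 200 CPM against 52.5 and 72.4 CPM, and Klrc2, at 130 and 116 CPM against 19.97 and 28.7 CPM, rose as well. For each of these 4 genes both member libraries lay above every library of other T cells on day 14, and the call held without any 1 library. Klrd1 was seen in 93 members, Klrk1 in 73, Klrc1 in 41 and Klrc2 in 38.

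Among further Ly49 genes, Klra9 stood at 92.4 and 136 CPM in members and 5.25 and 1.51 CPM in other T cells (log2 fold change 5.12 ± 0.48), and Klra3 at 79.8 and 84.1 CPM against 4.20 and 12.1 CPM. The call of Klra3 was lost on cells thinned to 1000 UMIs, where its log2 fold change was 1.93 instead of 3.61 (edgeR adjusted p = 0.501). Klra4 had 26 UMIs in members against 1, a 107-fold ratio of shares with a counting interval of 17.6 to 4384, and its log2 fold change in edgeR, 6.36, moved to 8.48 when day 14 replicate 1 was left out and to 4.41 when replicate 2 of that day was. Klra6 had 41 UMIs against 5, and its call was lost without day 14 replicate 1 (adjusted p = 0.132). These genes share 3′ sequence with others of the family, 70.2% of windows for Klra9, 61.1% for Klra3, 9.26% for Klra4 and 5.19% for Klra6, so part of their signal may come from the genes of the rule, and this was not tested. Klrb1a, also called higher, shared 17.2%, mostly with Klrb1c, a gene of the rule. Klrd1, Klrk1, Xcl1 and Ncr1 shared no window with another gene, and Klrc1 shared 77.5%, mostly with Klrc2.

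Set beside NK cells, the same receptors split. Of the 14 tested, 7 fell, 1 rose and 6 did not pass, where 1.32% of all genes tested fell and 1.69% rose. Klra8 was at 33.6 and 25.9 CPM in members against 478 and 335 CPM in NK cells (log2 fold change −3.69 ± 0.31, edgeR adjusted p = 9.0e-08). Klra4 (−3.04 ± 0.36), Klri2 (−2.69 ± 0.33) and Klrb1b (−2.38 ± 0.32) were lower as well, and the calls of these 4 held without any 1 library. That of Klra4 did not pass in DESeq2 (adjusted p = 0.407), nor that of Klrb1b in edgeR on cells thinned to 1000 UMIs (0.0659). Klrd1, at 605 and 556 CPM against 1035 and 1004 CPM in NK cells, was called lower too (−0.69 ± 0.17, edgeR adjusted p = 0.0222), and this call was lost without either day 14 library (largest adjusted p = 0.435). Klra6 was the member of the family that rose, at 109 and 97.0 CPM against 11.1 and 16.2 CPM (2.999 ± 0.616), a call lost without day 14 replicate 1 or without day 14 replicate 2 (largest adjusted p = 0.638). Klrk1 (−0.62 ± 0.22, edgeR adjusted p = 0.155), Klrc1 (−0.68 ± 0.19, 0.0582) and Klrc2 (−0.48 ± 0.28, 0.464) did not pass.

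Of 13 listed adaptors of NK receptor signalling, 10 were tested. Against other T cells 3 rose (Fcer1g, Tyrobp and Lat2), 1 fell (Lat) and 6 did not pass, and against NK cells 1 rose (Lat), 2 fell (Tyrobp and Sh2d2a) and 7 did not pass. Over all genes tested, 2.23% rose and 2.46% fell against other T cells, and 1.69% rose and 1.32% fell against NK cells. The call of Lat2 was lost without either day 14 library and that of Sh2d2a without day 14 replicate 1 (largest adjusted p = 0.0896 and 0.132 in edgeR). Fcer1g was at 933 and 1578 CPM in members, 260 and 525 CPM in other T cells and 2662 and 2404 CPM in NK cells. It was higher than in other T cells (1.57 ± 0.25, edgeR adjusted p = 3.8e-04) and its difference from NK cells missed the threshold (−0.83 ± 0.24, adjusted p = 0.0716). On cells thinned to 1000 UMIs that difference passed, with an adjusted p of 3.3e-04. Tyrobp was at 626 and 1054 CPM in members, 324 and 528 CPM in other T cells and 2673 and 2264 CPM in NK cells. The log2 fold change was 0.89 ± 0.23 against other T cells and −1.39 ± 0.23 against NK cells. The first of these calls was lost without either day 14 library and the second without day 14 replicate 1 (adjusted p = 0.595 and 0.224 at most). Hcst, the adaptor of NKG2D, passed against neither set, with log2 fold changes of −0.10 ± 0.18 and 0.16 ± 0.18.

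Phagocytes also express Fcer1g and Tyrobp. At 1000 UMIs per cell Fcer1g was detected in 51.5% and 50% of members, 93.4% and 90.6% of NK cells, 17.3% and 26.5% of other T cells and 21.9% and 29.9% of B cells. Tyrobp was detected in 39.7% and 60% of members, 85.7% and 87.1% of NK cells, 21.3% and 23.7% of other T cells and 25.4% and 30.9% of B cells. Summed over 12 phagocyte markers, members had 4282 and 3079 CPM, other T cells 5168 and 5388 CPM, NK cells 3500 and 3073 CPM and phagocytes 74792 and 64846 CPM, and no marker of the list was at 0 in members. Of these markers, 7 are the genes that the rule limits to 2% of a cell's UMIs, a limit that T cells without the receptors and NK cells also had to meet, so these sums are partly set by the selection. The part of free phagocyte RNA in the Fcer1g and Tyrobp values was not tested.

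Of 20 listed NK cell identity genes, 17 were tested. Against other T cells 12 rose, none fell and 5 did not pass, where 2.23% of all genes tested rose. Against NK cells none rose, 9 fell and 8 did not pass, where 1.32% of all genes tested fell. The filter on low counts could again be passed through members or NK cells alone. Ncr1, which encodes the activating receptor NKp46, had 46 UMIs in members and 2 in other T cells of day 14, a 94.6-fold ratio with a counting interval of 24.7 to 804. In NK cells it was higher again, at 515 and 494 CPM against 96.6 and 149 CPM in members (−2.004 ± 0.216, edgeR adjusted p = 3.9e-06). It was detected in 28 of the 114 members. Eomes, a T-box factor of NK and memory T cells, was at 29.4 and 97.0 CPM in members, 14.7 and 25.6 CPM in other T cells and 228 and 184 CPM in NK cells. Its difference from NK cells was called (−1.75 ± 0.35) but was lost without day 14 replicate 1 (adjusted p = 0.66), and that from other T cells was not called (1.63 ± 0.48, adjusted p = 0.0544).

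Cd7 and Il2rb were higher than in other T cells and did not pass against NK cells. Cd7, a surface glycoprotein of T and NK cells, was at 647 and 498 CPM in members, 115 and 93.5 CPM in other T cells and 743 and 584 CPM in NK cells. It was 2.57 ± 0.19 above other T cells on the log2 scale (edgeR adjusted p = 6.8e-09) and differed from NK cells by −0.15 ± 0.17 (adjusted p = 0.76). Il2rb, the β chain of the receptors for interleukin 2 and 15, was at 655 and 692 CPM in members against 271 and 300 CPM in other T cells (1.38 ± 0.18) and 957 and 1032 CPM in NK cells (−0.53 ± 0.18, adjusted p = 0.117). These 2 differences from NK cells did not pass, which does not show that the levels are alike.

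Spry2 and Car2 lay between the sets. Spry2, an inhibitor of receptor tyrosine kinase signalling, was at 214 and 77.6 CPM in members, 5.25 and 6.03 CPM in other T cells and 593 and 317 CPM in NK cells. Car2, carbonic anhydrase II, was at 139 and 129 CPM in members, 21.02 and 15.1 CPM in other T cells and 469 and 510 CPM in NK cells. Both genes were called in both comparisons, and these calls held without any 1 library.

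Cytotoxic granule genes were divided. Of 14 listed genes, 12 were tested, and against other T cells 7 rose and none fell, whereas against NK cells 4 fell and 1 rose. Among all genes tested, 2.23% rose against other T cells, and 1.32% fell and 1.69% rose against NK cells. Gzma, encoding granzyme A, was at 88.2 and 492 CPM in members against 2454 and 2513 CPM in NK cells (−3.49 ± 0.44, edgeR adjusted p = 2.6e-05). It was still above other T cells, at 12.6 and 125 CPM (2.32 ± 0.48). Only 13 of the 114 members had a Gzma UMI, and at equal depth the share was 4.4% and 15%, against 64.3% and 70.0% of NK cells, 1.6% and 4.7% of other T cells and 0.9% and 2.1% of B cells. The replicate 1 interval of members reached the background seen in B cells. Prf1, encoding perforin, was lower than in NK cells (46.2 and 77.6 CPM against 210 and 257 CPM, −1.93 ± 0.31).

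Gzmc and Gzmb varied between the libraries. Gzmc, a granzyme of activated lymphocytes, was at 100.8 CPM in replicate 1 and 860 CPM in replicate 2, and in NK cells at 228 and 785 CPM (−0.17 ± 0.26, edgeR adjusted p = 0.846). Other T cells had 1 Gzmc UMI on day 14 against 157 in members, a 646-fold ratio with a counting interval of 114 to 25664 that covers counting error only. The log2 fold change in edgeR was 8.004, and 5.37 without day 14 replicate 2. Gzmb was at 100.8 and 951 CPM in members, 132 and 434 CPM in other T cells and 725 and 1078 CPM in NK cells. It passed against neither set (0.85 ± 0.37 and −1.19 ± 0.37, adjusted p = 0.259 and 0.0876). Both granzymes were higher in replicate 2 in the members, and the number of libraries does not allow this difference to be tested.

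Xcl1 was high in both members and NK cells. It encodes lymphotactin, which attracts cross-presenting dendritic cells through XCR1. Xcl1 was at 845 and 1824 CPM in members, 152 and 140 CPM in other T cells and 1791 and 1973 CPM in NK cells. The increase over other T cells was 3.23 ± 0.23 on the log2 scale (edgeR adjusted p = 6.3e-09), and it held without any 1 library. The difference from NK cells was −0.51 ± 0.22 (adjusted p = 0.251). It was detected in 90 of the 114 members, and at equal depth in 51.5% and 67.5% of them, 62.6% and 63.5% of NK cells, 11.1% and 7.4% of other T cells and 0.4% and 1.0% of B cells.

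Other chemokines followed different patterns. Ccl5, a chemokine of memory T and NK cells, was at 6256 and 5602 CPM in members and 4029 and 3409 CPM in other T cells (1.05 ± 0.25), with 5747 and 3298 CPM in NK cells (0.15 ± 0.27, edgeR adjusted p = 0.884). Ccl4, a chemokine of activated lymphocytes, was at 130 and 239 CPM in members, below the 575 and 818 CPM of NK cells (−2.14 ± 0.33, adjusted p = 3.7e-04) and near the 213 and 216 CPM of other T cells (0.07 ± 0.35, adjusted p = 0.963). Ifng, encoding interferon γ, did not pass against either set (1.19 ± 0.35 and 0.09 ± 0.33, adjusted p = 0.061 and 0.948). Of the 10 tested genes of the cytokine and chemokine list, 2 rose and 2 fell against other T cells and 1 fell against NK cells. For all genes tested these shares were 2.23% and 2.46% against other T cells and 1.32% against NK cells. Areg, encoding amphiregulin, had no UMI in the 108 members and 65 in other T cells of day 14, at least 5.27-fold lower against a floor of 3 counts over the group, and its call was lost without day 5 replicate 1 or without either day 14 library.

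Ikzf2 was higher in members than in either comparison set. It encodes the transcription factor Helios, found in regulatory T cells and in innate-like T cells, and the rule had removed cells with Foxp3. Ikzf2 was at 454 and 433 CPM in members, 165 and 113 CPM in other T cells and 48.7 and 34.1 CPM in NK cells. The log2 fold changes were 1.70 ± 0.24 (edgeR adjusted p = 6.8e-05) and 3.58 ± 0.29 (adjusted p = 5.2e-08), and both calls held without any 1 library. Cd160, a receptor of the immunoglobulin family on cytotoxic lymphocytes, was also higher than in both, at 139 and 239 CPM against 21.02 and 27.2 CPM in other T cells and 84.0 and 91.0 CPM in NK cells. Its call against NK cells (1.26 ± 0.28) was lost without day 14 replicate 2 (adjusted p = 0.429).

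Of the 16 genes listed for invariant and innate-like T cells, 12 were tested. Against other T cells 3 rose (Il2rb, Ikzf2 and Tbx21) and 3 fell (Rora, Maf and Ly6a), and against NK cells 2 rose (Ikzf2 and Ly6c2) and 3 fell (Id2, Eomes and Maf). The shares over all genes tested were 2.23% and 2.46% against other T cells and 1.69% and 1.32% against NK cells. Zbtb16, which encodes PLZF, the factor that directs NKT cell development, was detected in 0 of 68 and 0 of 40 members at equal depth, and in 0.3% and 0.5% of other T cells. The zeros allow shares of up to 4.41% and 7.5%. Without thinning 1 member of replicate 1 had a Zbtb16 UMI, which gives a mean of 0.735% of members against 0.869% of other T cells. Trav11 and Trav11d, the variable segments used by invariant NKT cells, were at 0 in members, but variable segments were hardly read in any cell. Ly6c2, encoding the memory marker Ly6C2, stood at 1811 and 2342 CPM against 190 and 312 CPM in NK cells (2.62 ± 0.33) and 1439 and 1617 CPM in other T cells (0.82 ± 0.29, edgeR adjusted p = 0.126), and shared 50.1% of its 3′ windows, mostly with Ly6c1.

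Part of the T cell signalling genes differed from each set. Of 21 listed genes of the T cell receptor and its signalling, 19 were tested, and against other T cells none rose and 6 fell (Trac, Cd28, Cd5, Cd6, Lat and Bcl11b), while 13 did not pass. Against NK cells 9 rose, none fell and 10 did not pass. Over all genes tested, 2.46% fell against other T cells and 1.69% rose against NK cells. Lat, the scaffold of T cell receptor signalling, was at 181 and 155 CPM in members, 523 and 490 CPM in other T cells and 44.2 and 32.5 CPM in NK cells. The log2 fold change was −1.46 ± 0.21 against other T cells (edgeR adjusted p = 1.1e-04) and 1.96 ± 0.28 against NK cells. Both calls held without any 1 library.

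Bcl11b, a factor that fixes T cell identity, was at 92.4 and 19.4 CPM in members against 211 and 213 CPM in other T cells (−1.71 ± 0.33). That call was lost without day 14 replicate 2 (edgeR adjusted p = 0.192), and its rise over NK cells (3.95 ± 0.63) was lost without day 14 replicate 1 (adjusted p = 0.437). Cd5 and Cd6, scavenger receptor family proteins that restrain T cell receptor signals, had 15 and 18 UMIs in members of day 14 and 0 and 1 in NK cells, at least 13.6-fold higher for Cd5, whose call against NK cells was lost without day 14 replicate 2 (edgeR adjusted p = 0.0601). Both were lower than in other T cells (−1.70 ± 0.37 and −1.69 ± 0.33). Without day 14 replicate 1 neither of these calls against other T cells held (adjusted p = 0.454 and 0.445), and without day 14 replicate 2 that of Cd5 was lost too.

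The coreceptor genes differed in the sums as they did per cell. Cd8b1 was at 181 and 110 CPM in members and 516 and 634 CPM in other T cells (−1.84 ± 0.22, edgeR adjusted p = 1.1e-05), a call that held without any 1 library, and NK cells had 1 UMI against 60 in members. Its 3′ windows were shared to 45.2%. Cd8a was at 143 and 110 CPM against 274 and 318 CPM (−1.12 ± 0.24), a call lost without day 14 replicate 2 (adjusted p = 0.245). Cd8a was above NK cells by 4.88 ± 0.46. Cd4 had 2 UMIs in members against 144 in other T cells, 17.5-fold more by share with a counting interval of 4.76 to 146, and its call was lost without day 14 replicate 1 (adjusted p = 0.162).

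Some checkpoint and costimulation genes differed between members and other T cells, a set that holds both CD4 and CD8 T cells. Of 13 tested checkpoint and costimulation genes, Ctla4, Icos, Tnfrsf4 and Cd28 fell, Cd160 and Cd244 rose and 7 did not pass. Among all genes tested, 2.46% fell and 2.23% rose. The call of Cd244 was lost without day 14 replicate 2 (edgeR adjusted p = 0.0948), that of Cd28 was lost in DESeq2 (adjusted p = 0.134), and Cd160 and Ctla4 were not tested after thinning to 1000 UMIs. Tnfrsf4, encoding OX40, had 16.8 and 0 CPM in members against 179 and 222 CPM (−4.16 ± 0.48, edgeR adjusted p = 6.4e-06), and Icos 71.4 and 71.2 CPM against 419 and 338 CPM (−2.38 ± 0.25). Outside this list, Cd40lg, the helper ligand CD40L, had no UMI in members and 104 in other T cells, at least 8.43-fold lower, and this call was lost without day 14 replicate 1 (adjusted p = 0.353). Maf, a factor of helper and IL-17 T cells, had 1 UMI against 149, a 36.2-fold ratio with a counting interval of 6.40 to 1440. When the comparison was limited to cells of both sets with no coreceptor UMI, chosen after seeing the data, 171 genes were called and 125 of the 164 were among them.

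Of 12 listed interferon-induced genes, all tested, 6 fell against other T cells, among them Isg15, Ifit1, Ifit3, Ifi27l2a and Bst2, none rose and 6 did not pass. The share that fell over all genes tested was 2.46%. Ifi27l2a was at 492 and 1139 CPM in members, 3208 and 3745 CPM in other T cells and 197 and 275 CPM in NK cells. Its log2 fold change was −2.07 ± 0.22 against other T cells (edgeR adjusted p = 2.8e-06) and 1.74 ± 0.23 against NK cells, and both calls held without any 1 library. The other 5 calls were each lost without at least day 14 replicate 1 (largest adjusted p for Isg15 0.0896 and for Bst2 0.763). Against NK cells Ifi27l2a was the only gene of the list that passed, and it rose, where 1.69% of all genes tested rose. Ly6a, encoding the activation marker Sca-1, which interferon also induces, was at 130 and 175 CPM in members and 849 and 1029 CPM in other T cells (−2.58 ± 0.27, adjusted p = 1.9e-06), with 29.2% of its 3′ windows shared, mostly with Ly6c1.

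Of 10 listed dendritic cell markers, 5 were tested against other T cells, and 3 of them, the MHC class II presentation genes Cd74, H2-Aa and H2-Ab1, fell while 2 did not pass. Among all genes tested, 2.46% fell. Cd74, the invariant chain, was at 563 and 582 CPM in members and 1761 and 4213 CPM in other T cells (−2.23 ± 0.42). All 3 calls were lost without day 14 replicate 2 (edgeR adjusted p from 0.0826 to 0.302). These genes are also markers of dendritic and B cells. Summed over 10 dendritic cell markers, other T cells had 3258 and 7770 CPM, members 1113 and 1249 CPM, NK cells 1765 and 3785 CPM and B cells 28127 and 26726 CPM. The defining markers Flt3, Xcr1 and Clec9a were at 0 in members. Whether RNA or cells of antigen-presenting types in the other T cell set have a part in this difference was not tested.

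Of 12 listed cell cycle genes, 4 rose against other T cells (Stmn1, Cks1b, Tubb5 and Rrm2), 6 rose against NK cells and none fell. The shares that rose over all genes tested were 2.23% and 1.69%. The calls were not stable when day 14 replicate 1 was left out, which leaves 1 member sum. Stmn1, a microtubule regulator of dividing cells, was at 462 and 408 CPM in members, 112 and 297 CPM in other T cells and 97.3 and 266 CPM in NK cells. Without day 14 replicate 1 its adjusted p was 0.0942 against other T cells and 0.789 against NK cells in edgeR, and the other 3 and 5 calls were lost without that library too. Mki67, the proliferation marker, was at 58.8 and 58.2 CPM in members and 9.46 and 24.1 CPM in other T cells (1.82 ± 0.63, adjusted p = 0.115). Members were also deeper per cell, and on cells thinned to 1000 UMIs Stmn1 did not pass against other T cells (adjusted p = 0.072).

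Of the tissue residency and the egress genes tested, 1 of 6 and 2 of 10 were called against other T cells, where 4.7% of all genes tested were, and 1 of 6 and 1 of 10 against NK cells, where 3.01% were. Of the 6 tested tissue residency genes, Cxcr6, a chemokine receptor of resident and effector cells, fell against other T cells (63.0 and 116 CPM against 267 and 264 CPM, −1.60 ± 0.26) and rose against NK cells (1.32 ± 0.34). The first call was lost without day 14 replicate 1 (edgeR adjusted p = 0.0654) and the second without either day 5 library or day 14 replicate 2. Of 10 egress and circulation genes, 1 rose and 1, Ccr7, fell against other T cells, and S1pr1, the receptor for exit from tissue into blood and lymph, rose against NK cells (105 and 38.8 CPM against 19.9 and 13.0 CPM, 2.35 ± 0.43), a call lost without day 14 replicate 1 (adjusted p = 0.635). Ccr2, which guides cells into inflamed tissue, was lower than in NK cells, at 79.8 and 97.0 CPM against 509 and 466 CPM (−2.32 ± 0.26), and this call held without any 1 library. Il7r, encoding the interleukin 7 receptor, was at 134 and 58.2 CPM, above the 11.1 and 16.2 CPM of NK cells (2.99 ± 0.40) and below the 265 and 176 CPM of other T cells (−1.10 ± 0.26). The rise over NK cells was lost without day 14 replicate 1 (adjusted p = 0.0786) and the fall against other T cells without either day 14 library (at most 0.19).

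**Figure D5:**
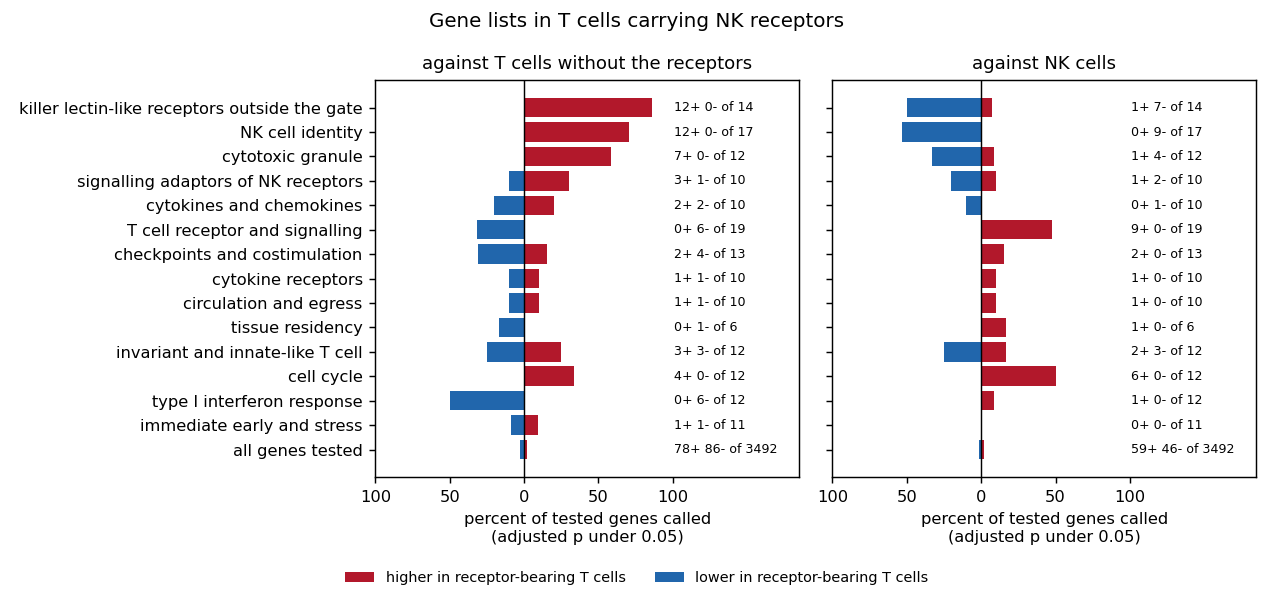
Percentage of the tested genes of 14 lists, and of all genes tested, that were called higher (red, to the right) or lower (blue, to the left) in receptor-bearing T cells, against T cells without the receptors (left) and NK cells (right), with counts of higher (+) and lower (-) genes beside each bar. Of the receptor genes outside the rule, 12 of 14 were higher than in other T cells, and 7 of 14 were lower than in NK cells.

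The members were not uniform. These splits are descriptions over pooled cells, 108 of them from the 2 day 14 libraries, and carry no test. Members with a Trac UMI (78, median 3220.5 UMIs) and without one (36, median 2840 UMIs) had Xcl1 in 79.5% and 77.8%, Fcer1g in 79.5% and 83.3%, and Cd8a or Cd8b1 in 23.1% and 22.2%. Ncr1 was seen in 15 of the 78 and in 13 of the 36, and Ikzf2 in 60.3% and 50%. Members with Cd8a or Cd8b1 (26, median 3403.5 UMIs) had Xcl1 in 53.8%, Klra1 in 15.4% and Klre1 in 80.8%. Those without (88, median 2999 UMIs) had Xcl1 in 86.4%, Klra1 in 58.0% and Klre1 in 63.6%. Klra1, Klre1 and Klrb1c are genes of the rule, and a member with few UMIs of any of them needed more of the others. Their shares in these splits are therefore partly set by the selection and do not show separate kinds of members. All 28 members with Ncr1 had Xcl1, and 82.1% of them had Klrb1c, against 72.1% and 41.9% of the 86 without Ncr1. Gzma was seen in 8 of the 28 and in 5 of the 86.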

How the data were processed

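Counts were measured in 4 libraries (2 per day) of the authors' deposited gene by barcode matrices. Values are raw UMI counts per gene, from Cell Ranger 3.0.1 with Seurat 2.3.4 and the GRCm38/mm10 build also named, per the submitters' processing notes. Per the file headers the day 5 matrices name software version 3.0.1 and the day 14 matrices name none. No per-cell annotation was used, so the sets are rebuilt from gene counts. Library totals, and the depth per set, are in the text. Counts were summed per set and library, and sums of at least 10 cells entered 1 edgeR 4.0.16 quasi-likelihood fit (3 sets, library as block, TMM, filterByExpr, 10 sums, 4 residual degrees of freedom), with Benjamini-Hochberg adjustment over 3492 genes, the genes of the rule left out. The SE of an edgeR log2 fold change was derived as its absolute value divided by the square root of the quasi-likelihood F statistic. DESeq2 1.42.0, other filters, gates, thinning and left-out libraries were alternatives. The fit was also run on simulated counts. These had the same means in both comparison sets and no library effect on single genes, so they differ from the data. The members, gene lists and tests were chosen with earlier results of these data known. Named genes were the 15 with the largest change in each direction (adjusted p under 0.05, at least 50 CPM in the higher set, same direction in each library with both sums, no rule genes, receptor segments, mitochondrial, ribosomal or predicted genes), plus genes of the lists. Some items are not reported here. Library blocks come from the design, since sets of 1 library share its preparation. Promoter and 3′ window searches used RefSeq and GENCODE sequences.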

Additional observations from a re-analysis of the deposited data

How the results depend on the processing

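The counts of called genes kept within 1.5 times of 164 against other T cells and 105 against NK cells in most alternatives, and moved further in these. DESeq2 called 65 and 40 genes, with 61.5% instead of 47.6% of the first higher in members, while DESeq2's size factors in edgeR gave 165 and 106. Thinning to 1000 UMIs gave 67 and 61. Fewer genes were tested at that depth, and part of the main calls against other T cells were not among them. These lower counts therefore do not show by themselves that a smaller share of tested genes differed. Fitting only the 2 sets compared gave 259 against other T cells. Without a filter on low counts, 160 genes were called against NK cells. With no replicate block, that is with library left out of the model, 69 and 57 were called. Leaving out 1 library gave 80 to 153 genes against other T cells and 37 to 119 against NK cells, the lowest both without day 14 replicate 1, when 1 member sum remains and is assumed to vary like the others. Of 30 named genes per comparison, 19 and 15 were called without each library in turn, 23 and 21 in DESeq2 and 14 and 17 after thinning, and none changed sign. Named genes not tested after thinning, among them Cd160 and Maf against other T cells, count there as not called. Beyond the losses given with the results, calls described there against other T cells that DESeq2 did not make included those of Areg, Bst2, Ccl5, Ccr7, Cd40lg, Cd5, Cd6, Cd74, Cd8a, Cks1b, Gzma, H2-Aa, H2-Ab1, Ifit1, Ifit3, Il7r, Isg15, Rrm2, Tbx21, Trac, Tubb5 and Tyrobp. Against NK cells they included those of Cd160, Cxcr6, Eomes, Id2, Klrd1, Maf, Sh2d2a and Stmn1. Tested after thinning and not called were, among others, Bst2, Cd8a, H2-Ab1, Ifit1, Ifit3, Il7r, Lat2, Prf1 and Tubb5 against other T cells and Bcl11b, Cd6, Cxcr6, Klrd1, S1pr1 and Stmn1 against NK cells. The difference of the share between days, 2.08 points, was 1.37 with 3 UMIs asked of each gene group, 0.750 when gating after thinning, 7.68 as a share of gated T cells, and 1.62 to 2.53 without 1 library. With same-numbered libraries paired as a replicate block it stayed 2.08, with a sign-flip p of 0.5, the smallest possible. The Cd8 detection difference of −20.04 points was −15.4 with the stricter gate and −21.9 to −18.2 without 1 library. Where not said otherwise, the cause was not tested. The fits of day 14 against day 5 in members, and of the day effect between sets, were not run because the day 5 libraries held 4 and 2 members. The member sums held 237998 and 154584 UMIs on day 14, which limits what can be seen of genes with few UMIs.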

Other observations

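Of the further genes of the comparisons given here, only Irf8 belongs to a list, that of NK cell identity, and is counted there. Atp1b1, a subunit of the sodium pump, was at 75.6 and 90.6 CPM in members against 5.25 and 4.53 CPM in other T cells (log2 fold change 4.18 ± 0.46, edgeR adjusted p = 3.3e-06). Klk8, a secreted serine protease, was at 118 and 97.0 CPM against 2.21 and 11.4 CPM in NK cells (3.82 ± 0.43). Irf8, an interferon regulatory factor of myeloid and NK cells, was at 113 and 233 CPM in members and 635 and 735 CPM in NK cells (−2.02 ± 0.25). The calls of these 3 genes held without any 1 library. Penk, encoding proenkephalin, had no UMI in the 108 members and 91 in other T cells of day 14, at least 7.38-fold lower, but those UMIs were concentrated in replicate 2 (136 CPM against 1.05 in replicate 1), and the call was lost without day 5 replicate 1 or without day 14 replicate 2 (adjusted p up to 0.988).

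The cells that only the Trdc condition left out met the rest of the rule and had a Trdc UMI. Such a UMI alone does not show that a cell is a γδ T cell. There were 18 and 19 on day 14 and none on day 5, with a pooled median of 3849 UMIs. Of these 37 cells, 31 had an Xcl1 UMI, 36 Fcer1g, 18 Ncr1 and 19 Ikzf2, and 27 had a γ chain constant gene. Trac was seen in 10 and Cd8a or Cd8b1 in 3. The 22 cells that only the phagocyte condition left out had a median of 6976.5 UMIs, more than either day 14 median of members, and 15 of them had Trac and 3 Ncr1. These are values of cells outside the set, with no test.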
